A study of Homo sapiens with 4 samples.

Results

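Isolated H3K27ac peaks are regions of acetylated chromatin that stand alone on the chromosome. They were chosen by position: every row of the DU145 H3K27ac peak list on chromosomes 1 to 22 with no other H3K27ac peak within 50 kb of either edge. The rule found 2925 such peaks among 49000 autosomal H3K27ac peaks (5.97%) and among 50364 in the whole list. The other 46075 autosomal peaks, and the 3355 of them whose nearer H3K27ac neighbour lay 20 to 50 kb away, were used for comparison.

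The series holds 4 chromatin libraries of prostate cancer cell lines in culture. They are DU145 chromatin immunoprecipitated with an antibody to H3K27ac, DU145 chromatin immunoprecipitated with an antibody to CTCF, DU145 input chromatin and LNCaP input chromatin. DU145 was derived from a brain metastasis and LNCaP from a lymph node metastasis. Cells were fixed with formaldehyde and sonicated, and the labels name no drug, genetic change or time course. There is 1 library a mark, so replicate error is not known and no test between groups was made. Shares are given with Wilson 95% intervals, which cover counting error only. Peaks of 1 library are not replicates. Whether the cells carry the marker genes of their labelled type was not analysed here, nor was the gene content of the regions.

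Acetylation of lysine 27 of histone H3 is laid down by the acetyltransferases p300 and CBP and marks active promoters and enhancers. Acetylated regions often lie in clusters, as around highly expressed genes, while others stand alone. CTCF is a zinc finger protein that binds a defined DNA sequence, holds the anchors of chromatin loops together with cohesin and can keep enhancers from acting on promoters beyond it. CTCF sites also position nucleosomes on either side, and many lie at promoters and enhancers.

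Isolated peaks occurred on all 22 autosomes, and their number per Mb varied less than their share of each chromosome's H3K27ac peaks. Per Mb between the outermost H3K27ac or CTCF peaks of a chromosome, their number was 1.05 over all autosomes. It was highest on chromosome 15 at 1.31 and on chromosome 6 at 1.299. It was lowest on chromosome 16, with 0.499 per Mb, and on chromosome 21, with 0.725 per Mb. All H3K27ac peaks together ranged far more widely, from 6.25 per Mb on chromosome 13 to 54.7 per Mb on chromosome 19.

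**Figure D1:**
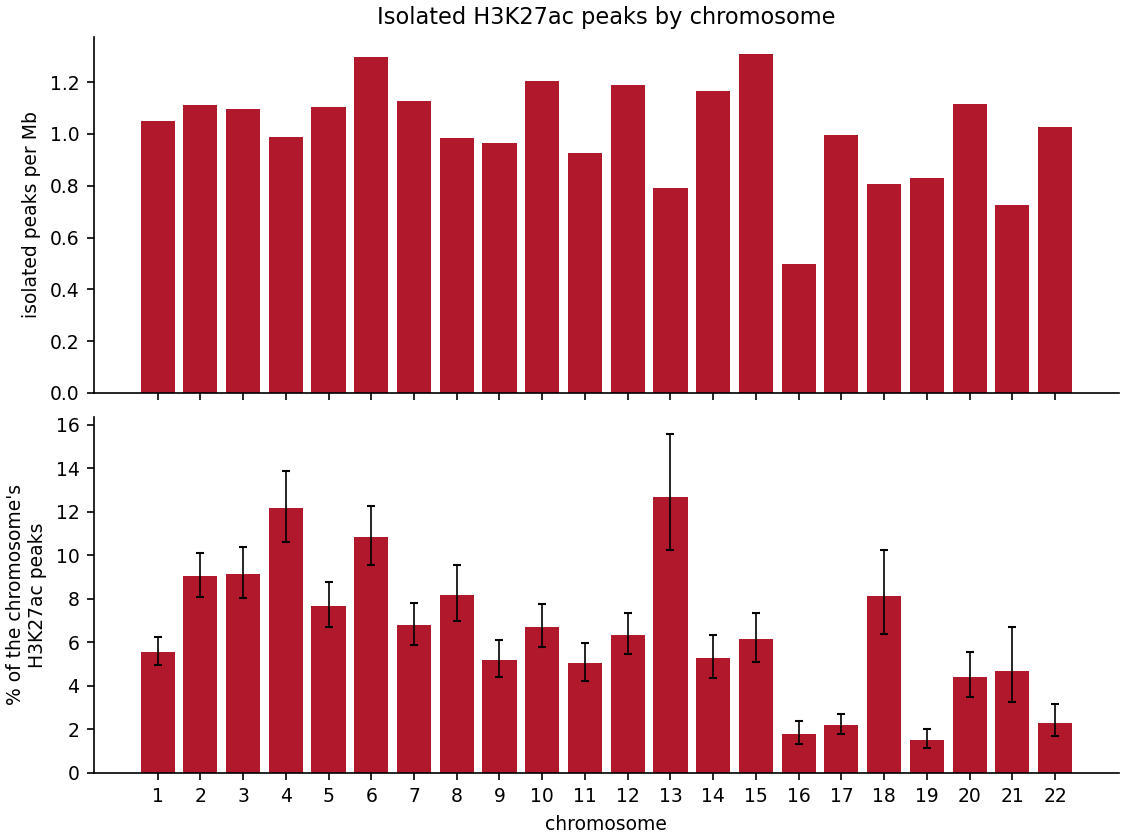
Isolated H3K27ac peaks per Mb (top) and as a percent of all H3K27ac peaks of the chromosome (bottom), by chromosome; error bars are Wilson 95% intervals. The number per Mb is lowest on chromosome 16 at 0.499, while the percent runs from 1.52% on chromosome 19 to 12.7% on chromosome 13.

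The share of a chromosome's H3K27ac peaks that was isolated therefore spread more than the number. On chromosome 13, 76 of 599 peaks were isolated (12.7%, interval 10.3 to 15.6). On chromosome 4 it was 189 of 1554 (12.2%, interval 10.6 to 13.9), and on chromosome 6 it was 222 of 2049 (10.8%). At the other end stood chromosome 19 with 49 of 3232 (1.52%, interval 1.15 to 1.999), chromosome 16 with 45 of 2521 (1.79%) and chromosome 17 with 81 of 3694 (2.19%). The chromosomes 4, 13 and 18, which are poor in genes, together held 328 isolated peaks among 2928 (11.2%). Across the 22 chromosomes the share had a Spearman rho of −0.91 with the number of H3K27ac peaks per Mb, whereas the number of isolated peaks per Mb had a rho of 0.07 with it. The first relation is in part built in, since the rule counts neighbours in the same list.

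The distance to the next acetylated region was mostly not far above the limit, with a long tail. The nearer neighbour lay at a median of 91.8 kb (quartiles 65.0 and 151.8), and the farther at a median of 230.3 kb among the 2911 isolated peaks that had a neighbour on both sides. The other 14 were the first or the last H3K27ac peak of their chromosome. The longer gap was a median of 2.05 times the shorter gap, and 246 peaks had a gap on one side more than 10 times that on the other. Only 102 isolated peaks were more than 500 kb from any H3K27ac peak, and 35 were more than 1 Mb away.

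The limit fell inside a continuous range of distances. Just inside it, 2 peaks on chromosome 1, at 47133515 to 47134000 and at 47184013 to 47184858, lay 50012 bases from each other. The next was on chromosome 12, at 76477074 to 76479343, with a neighbour at 50070 bases. Just outside it stood a peak on chromosome 12 at 54120739 to 54121173, with a neighbour at 49988 bases, and a peak on chromosome 18 at 46014499 to 46014995, with a neighbour at 49987 bases. Positions are in build hg19 and count from 1.

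The peaks farthest from other acetylation differed widely in strength. The farthest of all lay on chromosome 13 at 91999867 to 92002004, with 11083 kb to the left and 3199 kb to the right free of H3K27ac peaks. It had 151 fragments at the summit, with an exact Poisson interval of 128 to 177 at 95%. Its fold enrichment was 36.4, which placed it 571st of all autosomal H3K27ac peaks. It held 2 CTCF summits inside, and its gaps held 14 CTCF summits on the left and 8 on the right. Fold enrichment is the authors' value, the number of fragments at the summit over the local background.

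The next 4 by distance held no CTCF summit within 1 kb. On chromosome 14, the peak at 85699838 to 85701137 had a nearer neighbour at 2758 kb and a fold of 4.97. On chromosome 4, the peak at 65765981 to 65766279 had its nearer neighbour at 2644 kb, spanned 299 bases and had a fold of 3.83 from 15 fragments (interval 8.40 to 24.7). Those on chromosome 1, at 104068286 to 104069384, and chromosome 18, at 39535178 to 39535880, had folds of 16.0 and 9.82. The folds of the 5 farthest peaks thus ran from 3.83 to 36.4. Across all isolated peaks the Spearman rho of the nearer distance with fold enrichment was −0.03, and with width −0.04 (n = 2925 peaks of 1 library).

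Some isolated peaks followed each other along the chromosome. The rule bears on this, since the neighbour of an isolated peak already has over 50 kb free on one side, so the numbers are a description. Of the 2925, 1104 (37.7%) had no isolated neighbour, 1354 (46.3%) had 1 and 467 (16.0%) had isolated peaks on both sides. There were 50 runs of 5 or more consecutive isolated peaks, with 296 peaks in all. The longest runs held 10 peaks each. The first spanned 3.22 Mb of chromosome 7 from 84041775 to 87258272, with 25 CTCF summits, and the second 5.55 Mb of chromosome 20 from 10654734 to 16208007, with 33 CTCF summits. These are stretches where acetylated regions are single and CTCF sites outnumber them. That is not particular to the runs, since the 4692 gaps that border any isolated peak held 13949 CTCF summits.

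Isolated peaks were of ordinary width and somewhat higher fold enrichment, and very wide peaks were rarer among them than among the others as a whole. Their median width was 625 bases (quartiles 393 and 1172), against 563 bases (quartiles 377 and 1013) in the other autosomal peaks. Among isolated peaks with a −log10 q of at least 10 the median was 1074 bases, q being the peak caller's p-value adjusted over the list. Peaks of at least 1 kb made up 31.4% of isolated peaks and 25.4% of the others. For peaks of at least 2 kb the order turned, with 4.72% of isolated peaks and 7.74% of the others. Peaks of at least 3 kb were 21 of 2925 isolated peaks (0.718%) and 1196 of 46075 others (2.60%). Those with the nearer neighbour at 20 to 50 kb were closer to the isolated peaks. Of them 5.69% spanned at least 2 kb, and 31 of 3355 (0.924%) at least 3 kb. The widest isolated peak spanned 6138 bases, and the widest of the others 17714 bases. Widths and folds come from the list that the rule used, so they are a description.

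**Figure D2:**
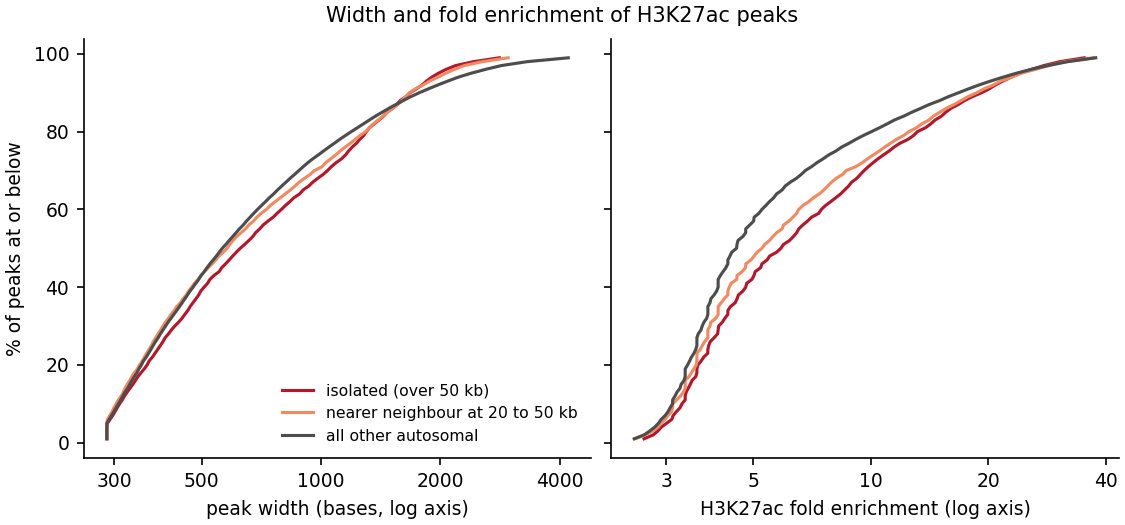
Percent of H3K27ac peaks at or below a given width (left) and fold enrichment (right), both on log axes, for isolated peaks, for peaks with the nearer neighbour at 20 to 50 kb, and for all other autosomal peaks, which include the second set. The width curves cross: isolated peaks have the higher median, 625 against 563 bases, and the lower 95th percentile, 1974 against 2383 bases.

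The median fold enrichment was 5.89 in isolated peaks (quartiles 3.85 and 11.1) and 4.54 in the others (quartiles 3.59 and 8.14). The median number of fragments at the summit was 30 in isolated peaks and 23 in the others. A −log10 q of at least 10 was found for 56.0% of isolated peaks and 42.3% of the others. The peaks with the nearer neighbour at 20 to 50 kb stood between, with a median fold of 5.27 and 51.4% at that level. Isolated peaks made up 2 of the 100 and 52 of the 1000 autosomal peaks with the highest fold (5.20%). They were 376 of the first 5000 (7.52%), against 5.97% of all autosomal peaks. The local background was at the lowest level of the list in 31.8% of isolated peaks and 29.5% of the others, and over 2 times that level in 6.46% of isolated peaks and 9.28% of the others.

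A part of the width difference depends on how regions were split into peaks. When other peaks less than 1 kb apart were joined, the 29089 resulting regions had a median width of 1024 bases (quartiles 423 and 1937), wider than the isolated peaks. The 10770 of these regions that joined 2 or more peaks had a median of 2076 bases. The 18319 that were single peaks had a median of 498 bases. No isolated peak changes by this joining. Isolated peaks were thus wider than other single peaks and narrower than most joined regions.

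The 10 strongest isolated peaks were wide for isolated peaks, from 1460 to 2827 bases, with summits of 174 to 281 fragments. The strongest, on chromosome 12 at 76477074 to 76479343, had 278 fragments at its summit (interval 246 to 313) and a fold of 52.6, and ranked 66th of all autosomal peaks. It is the peak whose left neighbour lay 50070 bases away, and a weak CTCF peak with a fold of 3.81 had its summit inside. The second, on chromosome 19 at 29702725 to 29704601, had a fold of 51.5 from 214 fragments (interval 186 to 245). No H3K27ac peak lay within 391.7 kb of it, and there was no CTCF summit within 1 kb. The third, on chromosome 15 at 50645580 to 50648406, had a fold of 48.9 from 281 fragments and no CTCF summit within 1 kb either. The fragment interval of the third, 249 to 316, overlaps that of the first.

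The fourth, on chromosome 4 at 83349966 to 83352645, had a fold of 45.8 and a strong CTCF peak inside, with a CTCF fold of 26.0. The others of the 10 strongest lay on chromosome 2 (54341985 to 54343444), chromosome 10 (38145702 to 38147355), chromosome 13 (52377263 to 52378911), chromosome 7 (148394997 to 148397421), chromosome 4 (40057438 to 40059517) and chromosome 18 (61636779 to 61638602). Their folds ran from 41.9 to 44.7. Among them, those on chromosome 2 and on chromosome 4 held a CTCF summit, with CTCF folds of 5.89 and 16.2.

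The widest isolated peaks were not the strongest. The widest, on chromosome 12 at 46120425 to 46126562, spanned 6138 bases with a fold of 24.6 and held a CTCF summit with a CTCF fold of 15.4. The second, on chromosome 17 at 9737590 to 9742866, spanned 5277 bases with a fold of only 13.7. The other 3 were on chromosome 4 (15003059 to 15007711), chromosome 13 (80912826 to 80917094) and chromosome 3 (149685667 to 149689785), between 4119 and 4653 bases wide. None of these last 4 had a CTCF summit inside, but each had 1 within 1 kb. Over all isolated peaks width and fold rose together, with a Spearman rho of 0.78. Both values come from the same fragments. Peaks under 400 bases (n = 763) had a median fold of 3.67, and those of 2 kb or more (n = 138) had 20.4.

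CTCF summits lay inside isolated H3K27ac peaks more often than inside the others, although most isolated peaks had none. Of 2925 isolated peaks, 269 held a CTCF summit (9.20%, interval 8.20 to 10.3), against 2525 of 46075 others (5.48%, interval 5.28 to 5.69). Over all autosomal H3K27ac peaks the share was 5.70%. In the peaks with the nearer neighbour at 20 to 50 kb it was 8.41% (interval 7.51 to 9.39), which overlaps the interval of the isolated peaks. Only 10 isolated peaks held 2 summits, and none held more. Per Mb of peak, isolated peaks held 112.3 CTCF summits, those with the nearer neighbour at 20 to 50 kb 107.0, and all others 67.4. When any base shared with a CTCF peak was counted, the isolated share was 15.3%.

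When other peaks less than 1 kb apart were joined, the order of the shares turned while that of the densities did not. The isolated share of 9.20% then stood against 10.6% (interval 10.2 to 10.9) of the 29089 joined or single regions. Joining adds length and takes in the breaks between peaks, and what each of these does to the share was not tested. The density was 112.3 summits per Mb in isolated peaks and 75.1 in these regions. Other regions that consisted of 1 peak held a summit in 6.35% (interval 6.01 to 6.72). Without regard to strength, the share in isolated peaks was thus above that of other single peaks and not above that of whole joined regions. These single peaks were narrower, with a median width of 498 bases against 625 bases. At a −log10 q of at least 10, given below, isolated peaks did not stand above those with a neighbour at 1 to 50 kb.

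Among isolated peaks, CTCF went with width and strength. The 269 with a summit inside had a median width of 1188 bases and a median fold of 11.2, and the 2656 without had 586 bases and 5.41. A summit lay inside 2.23% of isolated peaks under 400 bases, 7.40% of those of 400 to 1000 bases, 15.8% of those of 1 to 2 kb and 26.8% of those of 2 kb or more. Per Mb of peak, isolated peaks held 65.9 summits in the narrowest of 5 width groups of all autosomal peaks, then 69.4, 115.4, 132.9 and, in the widest, 115.8.

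Isolated and other peaks were therefore also compared at like fold and like width, after all autosomal peaks had been divided into 5 groups of about equal size. The share with a CTCF summit was higher in isolated peaks than in the others in all 5 groups of fold. In the weakest group it was 2.64% of isolated peaks (interval 1.48 to 4.67) and 0.713% of the others (0.562 to 0.904). In the second strongest group it was 10.1% (8.12 to 12.4) and 6.67% (6.17 to 7.20). In the strongest group it was 18.8% (16.2 to 21.6) and 17.01% (16.2 to 17.8), with overlapping intervals, as in the second and the middle group. By width, the share was again higher in isolated peaks in all 5 groups. It was 6.63% (4.83 to 9.04) and 2.77% (2.46 to 3.13) in the middle group, from 478 to 697 bases, and 19.1% (16.3 to 22.2) and 15.8% (15.0 to 16.5) in the widest. Intervals overlapped in the second narrowest group, with 2.86% (1.74 to 4.66) and 1.56% (1.33 to 1.84), and in the widest. As a ratio the difference was smallest among the strongest and the widest peaks. Peaks with the nearer neighbour at 20 to 50 kb had intervals that overlapped those of isolated peaks in every group. Their share was above the isolated share in the second weakest group of fold (2.28% and 2.17%) and the middle group (4.49% and 4.12%). By width it was above in the second widest group (13.75% and 11.9%), and in all remaining groups it was below. The higher isolated share thus holds against the others as a whole.

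The CTCF share did not rise steadily with isolation. It was 4.90% in peaks with a neighbour under 1 kb away, 4.93% at 1 to 5 kb, 7.16% at 5 to 20 kb and 8.41% at 20 to 50 kb. Within the isolated peaks it was 10.9% at 50 to 100 kb (interval 9.50 to 12.5, n = 1629) and 8.25% at 100 to 200 kb (6.55 to 10.3, n = 812). It was 4.71% at 200 to 500 kb (3.00 to 7.32, n = 382) and 5.88% beyond (2.72 to 12.2, n = 102). Among isolated peaks of at least that −log10 q of 10 the shares were 16.6%, 12.8%, 5.94% and 10.0% in the same 4 classes, and 14.1% over all of them. Among other peaks of that level they were 9.22% under 1 kb, 15.1% at 1 to 5 kb, 15.8% at 5 to 20 kb and 14.4% at 20 to 50 kb. At this level isolated peaks therefore stood above peaks with a neighbour under 1 kb away, but not above those with a neighbour at 1 to 50 kb.

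**Figure D3:**
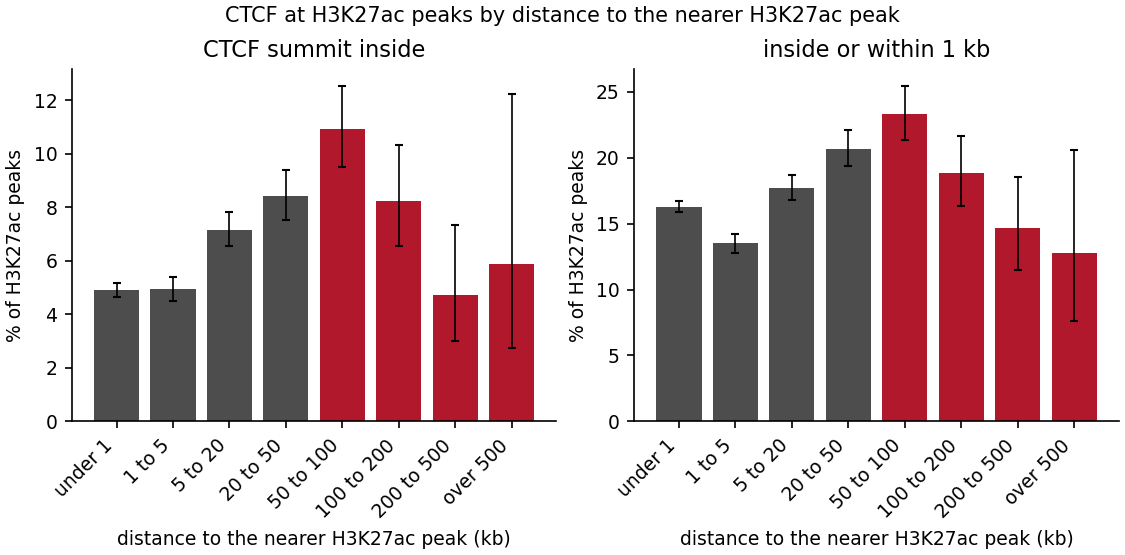
Percent of autosomal H3K27ac peaks with a CTCF summit inside (left) and inside or within 1 kb of an edge (right), by the distance to the nearer H3K27ac peak; red bars are the isolated peaks, grey bars the others, and error bars are Wilson 95% intervals. The highest bar in either plot is that of 50 to 100 kb, at 10.9% and 23.3%.

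Further CTCF sites lay just beside isolated peaks, about as often as beside the others. Another 333 isolated peaks (11.4%, interval 10.3 to 12.6) had a CTCF summit within 1 kb of an edge but none inside. The share was 10.8% in the others, 10.9% in all autosomal H3K27ac peaks and 12.3% in those with the nearer neighbour at 20 to 50 kb. The interval of the isolated peaks covers each of these. With inside and near together the share was 20.6% of isolated peaks (interval 19.2 to 22.1) and 16.3% of the others (16.0 to 16.6), against 16.6% of all autosomal H3K27ac peaks and 20.7% of those with the nearer neighbour at 20 to 50 kb. Most of these summits were close to the edge: 262 lay in the first 250 bases outside isolated peaks, 53 in the next 250 bases and 56 from 500 to 1000 bases.

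The density of CTCF summits stood out from the surroundings more at isolated peaks than at the others. At isolated peaks it was 112.3 per Mb inside, 179.1 in the first 250 bases outside, 36.2 from 250 to 500 bases and 19.1 from 500 to 1000 bases. From 2 to 5 kb it was 12.8 per Mb, and from 20 to 50 kb it was 13.9 per Mb. At the other peaks the first 250 bases held 134.6 per Mb, and the density stayed at 28.8 from 2 to 5 kb and 26.9 from 20 to 50 kb. The density inside was thus 8.06 times that at 20 to 50 kb for isolated peaks and 2.51 times for the others. For peaks with the nearer neighbour at 20 to 50 kb it was 4.98 times. The surroundings of isolated peaks are free of H3K27ac peaks by the rule, while those of the others include further H3K27ac peaks. Windows of neighbouring peaks overlap, so a summit can count more than once.

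**Figure D4:**
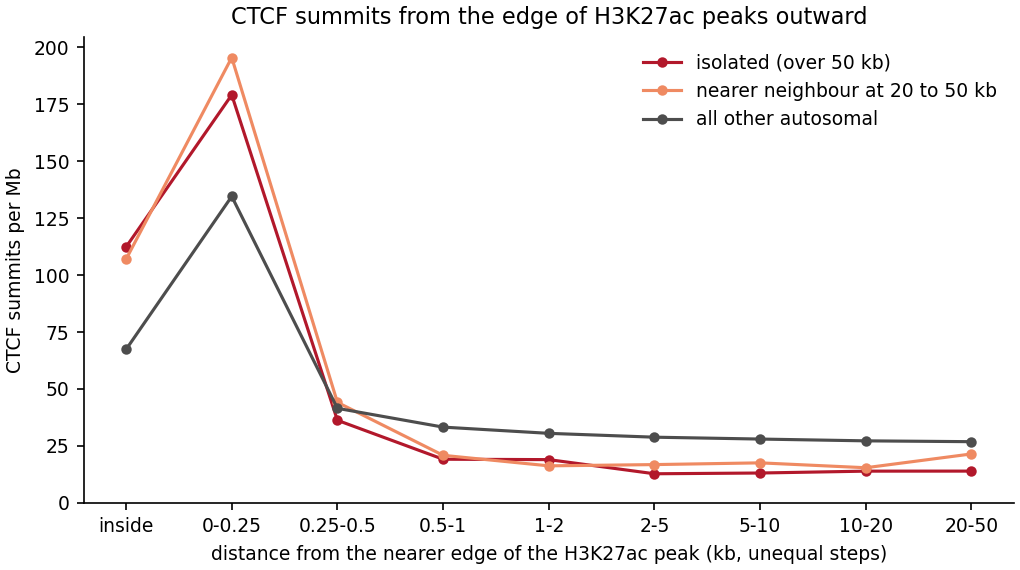
CTCF summits per Mb inside H3K27ac peaks and in steps from their edges outward to 50 kb, with unequal steps, for isolated peaks, for peaks with the nearer neighbour at 20 to 50 kb and for all other autosomal peaks, which include the second set. All 3 lines peak in the first 250 bases outside, at 179.1, 195.5 and 134.6 per Mb; beyond 2 kb the isolated line lies between 12.8 and 13.9 and that of the others between 26.9 and 28.8.

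CTCF peaks inside isolated H3K27ac peaks had ordinary strength. The 279 summits had a median CTCF fold enrichment of 8.88 (quartiles 5.74 and 15.6), and the 2681 summits in other H3K27ac peaks had 8.89 (quartiles 5.49 and 15.5). All 34750 autosomal CTCF peaks had a median of 9.76. The CTCF summit lay a median of 247 bases from the H3K27ac summit in isolated peaks and 276 bases in the others, in host peaks with median widths of 1203 and 1389 bases. It lay within 100 bases of the H3K27ac summit for 15.1% of summits in isolated peaks and 11.6% in the others.

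The strongest CTCF peaks inside isolated H3K27ac peaks did not lie in the strongest of these. The first, with a CTCF fold of 35.6, was in the H3K27ac peak on chromosome 9 at 129622449 to 129623638, which had an H3K27ac fold of 15.1. The second, with a CTCF fold of 34.6, was on chromosome 6 at 1554695 to 1555539, with an H3K27ac fold of 6.38. The next 3 were on chromosome 1 (208136235 to 208137530), chromosome 9 (71650599 to 71651278) and chromosome 7 (25219413 to 25220129). Their CTCF folds were between 31.6 and 32.7, and their H3K27ac folds between 8.12 and 15.7. The 5 host peaks were between 680 and 1296 bases wide, and 3 of them had an H3K27ac neighbour between 53.3 and 54.0 kb away.

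By chromosome, the share of isolated peaks with a CTCF summit inside was highest on chromosome 7, with 29 of 179 (16.2%, interval 11.5 to 22.3). On chromosome 2 it was 13 of 270 (4.81%, interval 2.84 to 8.06) and on chromosome 3 it was 10 of 217 (4.61%, interval 2.52 to 8.27). Chromosome 21 had 0 of 28, with a Wilson upper bound of 12.1%; the limit of 3 counts that a count of 0 allows is 10.7%. With 22 chromosomes compared, these extremes are given as values only. The gene-poor chromosomes 4, 13 and 18 together had 33 of 328 (10.1%), near the 9.20% of all isolated peaks.

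CTCF summits lay between most isolated peaks and their acetylated neighbours, as in other gaps of like length. Of the 2911 with 2 neighbours, 1905 had at least 1 CTCF summit in the gap on either side (65.4%, interval 63.7 to 67.1), 873 on 1 side only (30.0%) and 133 on neither side (4.57%). Over all autosomal peaks with 2 neighbours, the share with CTCF on both sides was 9.13%, but most of those peaks have short gaps. At like length, a CTCF summit lay in 64.4% of gaps beside isolated peaks and 65.2% of other gaps of 50 to 100 kb, in 81.7% and 82.4% of those of 100 to 200 kb, and in 94.0% and 95.8% of those of 200 to 500 kb. Where CTCF was on 1 side only, it was in the longer gap for 682 peaks and in the shorter gap for 191. Since gaps of either set held a summit more often the longer they were, this split is in part built in. The CTCF summits that bracketed the 1905 peaks were a median of 93.8 kb apart (quartiles 49.5 and 159.9).

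The count of CTCF summits in both gaps together had a median of 5 (quartiles 3 and 8). It reached 40 at a narrow peak on chromosome 1, 153281945 to 153282271, whose left gap of 1005 kb held 34 of them. Its neighbour across that gap, at 152276106 to 152276771, is also isolated and was the fourth of this ranking, with 34. Next after the first were 2 peaks on chromosome 14, at 19924893 to 19925236 and at 22137042 to 22137343, with 35 each. The fifth was on chromosome 1 at 236958551 to 236959321, with 33. The first 4 of these had H3K27ac folds from 3.04 to 3.68 and summits of 17 to 22 fragments, all below the lower quartile of isolated peaks by fold, which was 3.85.

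Gaps beside isolated peaks held fewer CTCF summits per Mb than other long gaps. The 4692 gaps that border an isolated peak covered 1600.1 Mb and held 13949 CTCF summits, 8.72 per Mb. The 3832 gaps over 50 kb that border none held 11.9 per Mb, in 831.7 Mb. Gaps beside isolated peaks were longer, with a median of 134.5 kb against 99.5 kb, and density fell with length in either set. The order was the same in all 5 length classes, for which no intervals of density were computed. From 50 to 100 kb the densities were 16.9 beside isolated peaks and 18.4 elsewhere, and from 200 to 500 kb they were 12.2 and 14.2. Over 1 Mb they were 4.28 and 5.63, but that class has no upper limit of length. It held 313 gaps in 758.9 Mb beside isolated peaks and 138 gaps in 286.0 Mb elsewhere. Long gaps can span unassembled sequence, which was not subtracted. Without gaps over 1 Mb the densities were 12.7 beside isolated peaks and 15.2 elsewhere.

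**Figure D5:**
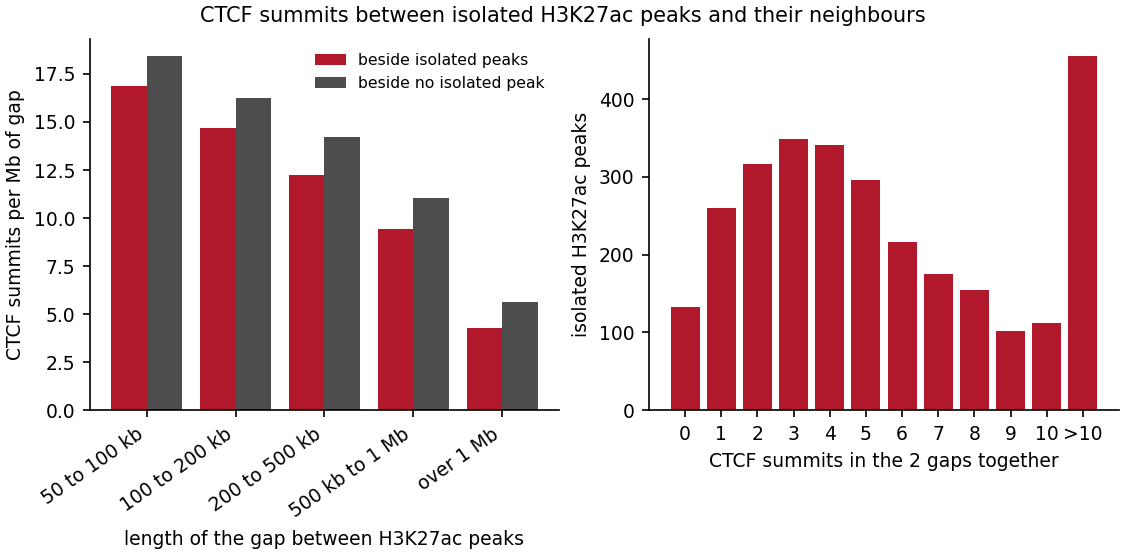
CTCF summits per Mb of gap between H3K27ac peaks by gap length (left), for gaps that border an isolated peak (red) and other gaps over 50 kb (grey), and the number of isolated peaks by the count of CTCF summits in their 2 gaps together (right; the last bar takes all counts above 10). Red bars are lower than grey in all 5 length classes, and 133 isolated peaks have no CTCF summit in either gap.

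Gaps with an isolated peak at 1 end only allow both ends to be set side by side, since both are free of H3K27ac over the same length. There were 3548 such gaps. In the first 500 bases from the edge, the end at the isolated peak held 191 CTCF summits and the other end 156, or 107.7 and 87.9 per Mb. The exact Poisson intervals of these counts, 165 to 220 and 132 to 182, overlap. From 500 to 1000 bases the order turned, with 30 at the isolated end and 35 at the other. From 1 to 5 kb the counts were 202 and 222, and from 5 to 10 kb they were 243 and 283. From 10 to 25 kb they were 763 (interval 710 to 819) and 869 (812 to 929), which overlap as well. The isolated end thus held fewer in every step beyond 500 bases. The intervals leave out that both ends belong to the same gaps, and the difference between the ends was not tested.

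At a larger scale, many isolated peaks were far from any CTCF site. The nearest CTCF summit, inside or outside, was a median of 20.3 kb from isolated peaks and 11.5 kb from the others. The lower quartiles were alike, at 3.02 and 2.94 kb, and the upper quartiles differed, at 51.8 and 28.9 kb. No CTCF summit lay within 50 kb of 771 isolated peaks (26.4%, interval 24.8 to 28.0), against 5503 of the others (11.9%, interval 11.7 to 12.2). Over all autosomal H3K27ac peaks, 87.2% had a CTCF summit inside or in that range. Those 771 had a median width of 591 bases and a median H3K27ac fold of 5.03, and the 2154 with CTCF in that range had 650 bases and 6.23. More than 100 kb from any CTCF summit were 256 isolated peaks (8.75%) and 1315 others (2.85%). Peaks with the nearer neighbour at 20 to 50 kb stood between, with a median of 17.2 kb to the nearest CTCF summit. Of them 16.7% had none within 50 kb and 3.96% none within 100 kb.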

How the data were processed

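The peak lists of the DU145 H3K27ac and DU145 CTCF libraries were used, 1 library each. Signal of the DU145 and LNCaP input libraries was not analysed here. Bowtie, MACS2 and build hg19 are named in the submitters' processing notes; their versions and parameters were not stated there. The deposited columns give the position and summit of a peak, a whole-number score (not used), a fold enrichment, which is a linear ratio over local background, and p-values and q-values as −log10. No deposited −log10 q was below 1.31. Folds were used only within a list.

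Distances run from edge to edge, and a CTCF peak was placed by its summit. Of 36152 CTCF peaks, 34750 were autosomal. Fragments and local background at an H3K27ac summit were solved from its deposited fold and −log10 p, on the assumptions of a Poisson upper tail, a pseudocount of 1 and unscaled fragments, with a tolerance of 0.002; this solved 100% of autosomal peaks. The median of 30 fragments limits the precision of single isolated peaks, and library totals are not known. Computations used Python 3.11.15, pandas 2.3.3 and scipy 1.17.1, checked on simulated lists. The members, comparisons and lists were chosen with earlier results of these data known. Named regions are the 10 strongest isolated peaks, the 5 widest, the 5 farthest from H3K27ac, the 5 with the strongest CTCF peak inside, the 5 with most CTCF summits in the gaps, and those nearest the 50 kb limit. The longest runs and the peaks with the highest background were chosen after their values were seen. With 1 library a mark, no test was made.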

Additional observations from a re-analysis of the deposited data

How the results depend on the processing

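Of 50 values recomputed under other settings, 18 stayed within their limits (the 95% interval, or 1.5 times for the number of peaks) and 32 moved. With a distance of 25 kb there were 5383 isolated peaks (10.99%), with a median width of 599 bases, CTCF in both gaps for 50.02% and 9.57 CTCF summits per Mb of gap. With 100 kb there were 1296 (2.64%), with 595 bases, a CTCF summit inside 7.02% and inside or within 1 kb of 17.1%, both gaps 80.4% and 7.49 per Mb. With H3K27ac peaks of −log10 q of 10 or more as members and neighbours, 3642 of 21140 were isolated (17.2%), with 1079.5 bases. A CTCF summit lay inside 13.8%, inside or within 1 kb of 25.3% and in both gaps for 72.2%, with 9.91 per Mb. With that threshold for members only there were 1637 (3.34%), with 1074 bases, 14.1% inside, 25.6% inside or within 1 kb and 8.37 per Mb. With CTCF peaks of −log10 q of 10 or more, the shares were 7.01% inside and 16.96% inside or within 1 kb. For both gaps the share was 58.6%, with 6.98 per Mb. Any shared base with a CTCF peak gave 15.3% in place of 9.20%. The last 2 settings were added after seeing the data: gaps up to 1 Mb gave 62.5% both gaps and 12.7 per Mb, and leaving out high local background left 5.58% isolated. Some moves follow from the settings by construction. A longer distance, or leaving out members by a threshold or by background, can only lower the number of isolated peaks. With the threshold on neighbours too, the number can move either way. Any shared base can only raise the share inside, and fewer CTCF peaks can only lower CTCF shares and densities. Gaps over 1 Mb held 4.28 summits per Mb, so leaving them out raises the density. The cause of the other moves was not tested. No paired analysis was possible because each mark has 1 library. Weak peaks rest on as few as 11 fragments, which limits their call.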

Other observations

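The isolated H3K27ac peaks include the autosomal peaks with the highest local background. Of 8 autosomal H3K27ac peaks with a background more than 10 times the lowest level of the list, 5 were isolated, against 5.97% of all autosomal peaks. The highest, on chromosome 7 at 61968803 to 61969481, had 568 fragments at the summit, a background of 139.6 times the lowest level and a fold enrichment of 1.28, the lowest of all. The next were on chromosome 6 at 58776457 to 58777053 (fold 1.32, background 115.8 times) and chromosome 1 at 121484613 to 121485192 (fold 1.46, background 96.5 times). Each had an H3K27ac-free gap of more than 5 Mb on one side or the other. None of the 3 held a CTCF summit within 1 kb. These peaks were chosen after their values were seen, and their own part in other results was not measured. A wider set, all 189 isolated peaks over 2 times the lowest background, was left out as 1 of the settings above. Of the remaining 2736, 8.95% held a CTCF summit inside, against 9.20% of all 2925.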
